A study of Mus musculus with 8 samples.

Results

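Mitochondrial carriers and the machinery that imports proteins into mitochondria were examined in regulatory T cells (Tregs) sorted from mouse spleen. Members were the rows of the deposited expression table whose gene symbol starts with Slc25a, Timm or Tomm followed by a digit. This gave 71 of the 21524 genes in the table, of which 46 were carriers and 25 were import genes. The treated group was 4 libraries labelled IL-2 (libraries 41 to 44), and the comparison group was 4 libraries labelled control (libraries 45 to 48). All 8 libraries came from flow-sorted Tregs of spleen, and the labels gave no strain, genotype, sex or age for either group. The series as a whole concerns an IL-2 mutein, a modified IL-2, combined with CTLA-4 Ig, a co-stimulation blocker, in C57BL/6 recipients of BALB/c hearts or kidneys. For these libraries the form and dose of IL-2, any CTLA-4 Ig, any graft and the treatment of the controls were not given. Nor was it given that libraries came from separate animals, so every p-value here speaks of library-to-library spread, which may be technical.

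Carriers of the Slc25a family are mostly proteins of the inner mitochondrial membrane, and they exchange nucleotides, phosphate, metabolites, amino acids, cofactors and metals between the cytosol and the matrix. Nearly all mitochondrial proteins, the carriers included, are made in the cytosol and enter through the TOM complex of the outer membrane. Proteins with a presequence continue through the TIM23 complex into the matrix, while carriers are escorted by small TIM chaperones to the TIM22 complex, which inserts them into the inner membrane. In T cells, mitochondrial ATP supply and metabolite exchange are known to support growth and division.

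The authors deposited variance-stabilised log2 values, and normalised read counts were recovered from them. Levels below are normalised reads, and folds are ratios of group means of normalised reads. Differences, with their SE and intervals, are on the deposited log2 scale, which understates fold changes, most of all for genes with few reads. Even Slc25a5, at a mean of 1116 reads, differed by 0.37 on this scale and by 0.59 as log2 of reads plus 5. Estimated depth was 4953546 to 6399417 reads per library with IL-2 and 4970819 to 6147508 in controls. Genes with at least 10 normalised reads in at least 4 libraries were tested with limma, 10777 in all. Many members were sparsely covered, with 23 of the 58 tested averaging under 100 reads, the level at which counting alone adds a relative error of 10%.

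The 7 markers of Tregs and CD4 T cells were present in every library, Foxp3 at 1883 ± 262 reads with IL-2 and 1537 ± 290 in controls, where ± is the SD over 4 libraries here and below. Of these markers 2 rose (Il2ra and Tnfrsf18) and 1 fell (Cd4). IL-2 library 44 stood apart in some cell cycle transcripts but not in others. It had 13044 reads of the proliferation gene Mki67, against 5332 to 6142 in the other IL-2 libraries and 2810 to 4271 in controls. For the cell cycle genes Mcm3 and Mcm4 it was the lowest IL-2 library, at 1002 and 854 reads. The Y-linked transcript Ddx3y was at 0 in IL-2 libraries 41 and 42 and in control library 45, and at 216 to 460.5 reads in the other 5. The 7 B cell markers summed to 106 to 212 reads with IL-2 and 396 to 503 in controls, nearly all of it Cd74 and Cd79b, with Ms4a1, Pax5 and Cd79a averaging at most 2.23 reads in either group. Cd74 fell to 88.5 ± 40.1 reads with IL-2, against 396 ± 35.4 in controls (limma adjusted p = 2.85e-05). Cd79b did not fall, with 60.1 ± 31.1 reads (IL-2) and 42.0 ± 14.1 reads (control) (limma adjusted p = 0.549). The 8 myeloid markers summed to 803 to 1034 reads with IL-2 and 1621 to 1904 in controls, mostly Ctss, which fell to 847 ± 121 reads with IL-2, against 1663 ± 140.1 in controls (limma adjusted p = 5.64e-05). Itgam had 63.4 ± 35.9 reads (IL-2) and 64.4 ± 25.5 reads (control). Lyz2 and C1qa were at 0 in all IL-2 libraries and averaged 10.1 and 8.94 reads in controls, and Fcgr3 was at 0 in all libraries but control library 45. The 5 markers of CD8 T and NK cells summed to 128 to 184 reads with IL-2 and 145 to 200.2 in controls. Klrb1c had 2.90 ± 3.53 reads with IL-2 and 36.4 ± 29.5 in controls. It reached the 10 reads needed for testing in control libraries only, so no call is drawn from it. Prf1 had 76.9 ± 16.0 reads (IL-2) and 53.1 ± 16.8 reads (control) (limma adjusted p = 0.234). The 9 red cell and platelet markers summed to 0 to 43.5 reads with IL-2 and 0.927 to 116 in controls, with Slc4a1 at 0 in all IL-2 libraries. The part of these cells in the results below was not tested. In bulk RNA, fewer cells of a type and less RNA per cell cannot be told apart.

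Among the carriers, the phosphate carrier Slc25a3, the ADP/ATP carriers Slc25a4 and Slc25a5 and the ATP-Mg/phosphate carrier Slc25a24 were 1.47-fold to 1.77-fold higher with IL-2, and each of the 4 lay wholly above the control libraries. Of 35 carriers tested, these 4 rose, 0 fell and 31 did not pass an adjusted p of 0.05 (limma with Benjamini-Hochberg adjustment). At an unadjusted p of 0.05, 5 were higher and 2 lower. Across all 10777 genes tested, 11.0% rose and 9.19% fell, so the carriers' share of rises, 11.4%, was near that of all genes. The median difference of the tested carriers was -0.02, beside a median of -0.0038 over all genes tested. Among the 4050 genes with a mean of at least 300 reads, 16.3% rose. The 6 carriers at that depth were Slc25a3, Slc25a4 and Slc25a5, which rose, and Slc25a36, Slc25a46 and Slc25a51, which did not pass.

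The upstream sequences of Slc25a5, Slc25a3 and Slc25a4 are shown because these 3 genes supply the nucleotide and phosphate substrates of ATP synthase and were higher by nearly the same factor. Each is the 250 bases before the annotated start in RefSeq on GRCm38.p6, 5′ to 3′ on the gene's strand, at chrX:36795347-36795596 (plus strand), chr10:91123968-91124217 (minus strand) and chr8:46211063-46211312 (minus strand). Capitals mark the ETS motif CCGGAAG on either strand.
Slc25a5: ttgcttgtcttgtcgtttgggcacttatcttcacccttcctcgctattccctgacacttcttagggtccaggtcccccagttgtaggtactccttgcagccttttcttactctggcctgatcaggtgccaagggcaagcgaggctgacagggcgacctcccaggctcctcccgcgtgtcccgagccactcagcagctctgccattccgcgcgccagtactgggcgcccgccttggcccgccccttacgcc
Slc25a3: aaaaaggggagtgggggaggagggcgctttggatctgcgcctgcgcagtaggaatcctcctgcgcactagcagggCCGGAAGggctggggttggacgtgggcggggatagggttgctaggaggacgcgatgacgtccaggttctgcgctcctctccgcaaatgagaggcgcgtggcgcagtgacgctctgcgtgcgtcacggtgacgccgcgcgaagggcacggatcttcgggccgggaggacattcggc
Slc25a4: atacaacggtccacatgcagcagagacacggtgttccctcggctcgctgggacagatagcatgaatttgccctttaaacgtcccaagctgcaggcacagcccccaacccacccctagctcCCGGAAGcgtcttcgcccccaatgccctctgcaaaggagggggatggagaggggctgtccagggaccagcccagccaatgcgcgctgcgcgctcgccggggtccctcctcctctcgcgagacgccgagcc

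Of these 3 sequences, those of Slc25a3 and Slc25a4 held the ETS motif and that of Slc25a5 did not. The search covered 250 bases before to 50 after the start, on both strands, for 4 motifs, of which the ETS and STAT motifs can share bases. CCGGAAG was found for 7 of 36 carriers, 9 of 22 import genes and 22.4% of the 8479 tested genes with a promoter in the RefSeq table. The 36 and 22 include members too sparse to be tested, such as Slc25a54 and Tomm20l, so the sets are not alike. Over all 27025 genes with a promoter, tested or not, the share with CCGGAAG was 9.93%. The E-box CACGTG was found for 7 carriers, 5 import genes and 12.0% of tested genes. The core of the NRF1 motif, CGCATGCG, was found for 0 carriers, 1 import gene (Timm13) and 4.72% of tested genes. The STAT motif TTCNNNGAA was found for 2 carriers (Slc25a36 and Slc25a54), 2 import genes (Timm13 and Timm22) and 8.39% of tested genes. Of the 7 members that rose, 3 held the ETS motif, 1 the STAT motif and 0 either of the other two. These matches describe the letters of the windows only.

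The ADP/ATP carriers exchange matrix ATP for cytosolic ADP. Slc25a5, the form most used by dividing cells, had 1486, 1370, 1167 and 1345 reads in IL-2 libraries 41 to 44, against 820, 903, 869 and 972 in control libraries 45 to 48. The lowest IL-2 library lay above the highest control. Its mean was 1342 ± 132 with IL-2 and 891 ± 63.7 for controls (SD, n = 4 each), the IL-2 mean being 1.51-fold higher (log2 difference 0.37 ± 0.06 SE, limma adjusted p = 9.32e-04). Slc25a5 lies on the X chromosome, and with the presence of Ddx3y as a covariate it still passed (adjusted p = 0.00235).

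Slc25a4, the form best known from heart and muscle, had 588, 630.5, 608 and 648 reads with IL-2, against 429, 459, 427 and 363 in controls. The IL-2 libraries were close together and none reached down to a control. Mean reads were 619 ± 26.2 for IL-2 and 419.6 ± 40.4 for controls, 1.47-fold higher (log2 difference 0.27 ± 0.05 SE, limma adjusted p = 0.00251). Slc25a5 took 68.3% ± 2.48 of the reads of the pair with IL-2 and 67.9% ± 3.28 in controls, and no difference in this proportion was detected (difference 0.393 percentage points, exact two-sided permutation p = 0.771, n = 4 each). Salmon splits reads between near-identical sequences by estimation, and Slc25a5 is known to have processed copies in the genome, so its level is uncertain to that extent.

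Slc25a3 brings phosphate, and copper, into the matrix. It had 917, 963, 707 and 978 reads with IL-2, against 605, 579, 572 and 584 in controls. IL-2 library 43 was lower than the other 3 IL-2 libraries and still above every control. Its means were 891 ± 125 reads (IL-2) and 585 ± 14.0 reads (control), 1.52-fold higher (log2 difference 0.33 ± 0.06 SE, limma adjusted p = 0.00281). A snoRNA gene lies within Slc25a3 in the RefSeq annotation and has no row in the table.

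Slc25a24 and Slc25a23 encode calcium-regulated carriers that exchange ATP-Mg for phosphate and so set the size of the matrix nucleotide pool. Slc25a24 had 421, 355, 297 and 350.0 reads with IL-2, against 223, 182, 195 and 203 in controls. The lowest IL-2 library exceeded the highest control. Means were 356 ± 51.0 with IL-2 and 201 ± 17.4 for controls, the IL-2 mean being 1.77-fold higher (log2 difference 0.31 ± 0.06 SE, limma adjusted p = 0.00222). Slc25a23 had 87.5, 100.2, 73.0 and 33.6 reads with IL-2, against 127, 159, 131 and 95.9 in controls. IL-2 library 44 was lowest, and IL-2 library 42 lay above control library 48. Slc25a23 did not pass at 73.5 ± 28.9 reads with IL-2 and 128 ± 25.7 in controls (log2 difference -0.20 ± 0.07 SE, limma adjusted p = 0.0661), but passed as lower without IL-2 library 42 (adjusted p = 0.0463) and with the Ddx3y covariate (adjusted p = 0.0452).

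Of 9 pairs of related members compared for their proportion, this was the 1 pair with an exact p under 0.05 before adjustment. Slc25a24 took 82.8%, 78.0%, 80.3% and 91.2% of the reads of Slc25a24 and Slc25a23 with IL-2, against 63.7%, 53.4%, 59.9% and 67.9% in controls. The groups did not overlap (difference 21.8 percentage points, exact two-sided permutation p = 0.0286, the lowest possible with 4 libraries a group). After Benjamini-Hochberg adjustment over the 9 pairs compared, the exact permutation p was 0.257. Another ATP-Mg/phosphate carrier, Slc25a25, had means of 117 ± 10.6 reads with IL-2 and 147 ± 24.6 for controls (adjusted p = 0.277, limma).

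**Figure D1:**
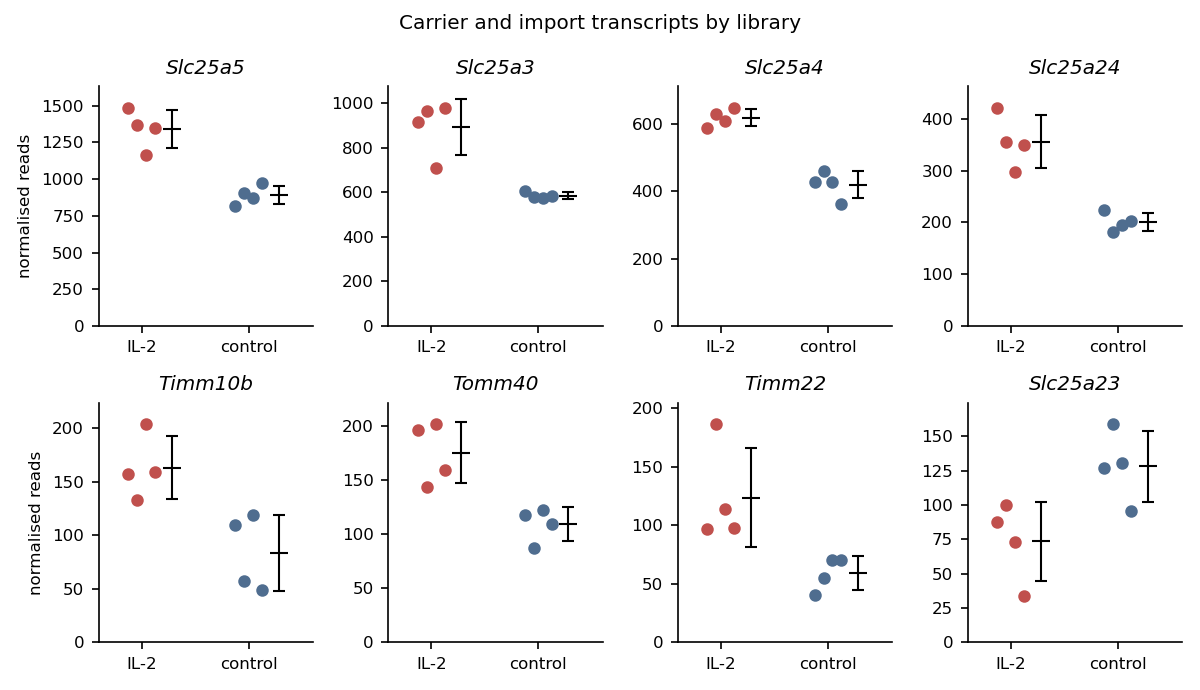
Normalised reads (linear axis from 0) in each of the 4 IL-2 and 4 control libraries for the 7 members that rose and for Slc25a23, with the group mean and SD as a bar beside the points. The IL-2 points of the 7 members that rose lie above all control points, from 1167 to 1486 against 820 to 972 reads for Slc25a5, while Slc25a23 overlaps.

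The 4 carriers that rose made up a larger part of the reads of the 46 carriers examined with IL-2. Their share was 45.7% ± 2.11 of carrier reads with IL-2 and 33.6% ± 1.58 in controls (SD, n = 4 each). Summed over the 46 carriers, there were 6489 to 7338 reads with IL-2 and 5894 to 6435 in controls. Family members with other symbols are left out of these sums and shares. One of them, Ucp2, had 2658 ± 226 reads (IL-2) and 2551 ± 113 reads (control). Without these 4 genes the remaining carriers held 3808 ± 145 reads with IL-2 and 4144 ± 251 in controls. Since the 4 genes were picked out by the same comparison, these sums describe how the reads were divided and are not tested.

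Carriers of carboxylates and of acylcarnitine gave 0 calls among 4 tested. Slc25a20, which brings acylcarnitine in for fatty acid oxidation, had 161, 113, 133 and 162 reads with IL-2, against 102, 119, 104 and 109.9 in controls (adjusted p = 0.202, limma). The groups overlapped through IL-2 library 42. Slc25a11, the oxoglutarate/malate carrier of the malate-aspartate shuttle, had means of 214 ± 27.1 reads with IL-2 and 261 ± 39.96 in controls (adjusted p = 0.257). The citrate carrier Slc25a1, which exports citrate for lipid synthesis, had means of 59.0 ± 23.5 reads with IL-2 and 43.8 ± 21.7 in controls, and a difference was not detectable at this depth (adjusted p = 0.526). The dicarboxylate carrier Slc25a10 averaged 23.6 ± 11.5 reads (IL-2) and 27.0 ± 13.6 reads (control).

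Amino acid carriers gave 0 calls among 6 tested, and 5 of the 6 differences were below 0. Slc25a12, which exports aspartate in exchange for glutamate in the same shuttle, had 245, 210, 203 and 168 reads with IL-2, against 251, 321, 310 and 238 in controls. IL-2 library 41 lay above control library 48, and the difference of -0.16 ± 0.06 SE did not pass (limma adjusted p = 0.0852). Its paralog Slc25a13 had 39.9 ± 19.1 reads (IL-2) and 57.9 ± 9.46 reads (control) (adjusted p = 0.291). Slc25a38, the glycine carrier needed for haem synthesis, had 95.1 ± 35.6 reads (IL-2) and 113 ± 14.2 reads (control) (adjusted p = 0.503). The ornithine carrier Slc25a15, the glutamate carrier Slc25a22 and Slc25a44, which carries branched-chain amino acids, had adjusted p-values of 0.842, 0.770 and 0.732. Slc25a22 was at 0 in IL-2 libraries 42 and 44 and in control library 45. Summed reads of the amino acid carriers were 449 to 628 with IL-2 and 617 to 732 in controls, and the ranges overlapped.

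Carriers of cofactors, pyrimidine nucleotides, iron and glutathione gave 0 calls among 13 tested. Slc25a39 and Slc25a40 bring glutathione into mitochondria. Slc25a39 had 119, 154, 149 and 167 reads with IL-2, against 125, 105.0, 109 and 76.5 in controls (adjusted p = 0.114, limma). Slc25a40 had 61.1, 60.3, 0 and 97.4 reads with IL-2, against 56.4, 113, 101 and 118 in controls (adjusted p = 0.202, limma). Both genes overlapped between the groups, and Slc25a40 was at 0 in IL-2 library 43. Slc25a39 made up 75.3% ± 16.9 of the pair's reads in the IL-2 group and 52.1% ± 12.4 in the control group (two-sided exact permutation p = 0.0857, adjusted 0.386, n = 4 each). Without control library 45 the exact permutation p was 0.0286 before adjustment, the lowest possible with 4 against 3 libraries.

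The iron carrier Slc25a37, known from developing red cells, was uneven, with 27.5, 112, 33.6 and 0 reads with IL-2 and 0, 96.3, 0 and 38.0 in controls. Its values did not separate the groups (limma adjusted p = 0.731), and its paralog Slc25a28 had 59.2 ± 18.1 reads (IL-2) and 52.5 ± 33.1 reads (control) (adjusted p = 0.737). The pyrimidine nucleotide carrier Slc25a36 had 472 ± 42.9 reads (IL-2) and 539.6 ± 103.8 reads (control) (adjusted p = 0.432), and the NAD carrier Slc25a51 had 332 ± 65.0 reads (IL-2) and 306 ± 16.98 reads (control) (adjusted p = 0.694). Other carriers of this group were Slc25a17 of peroxisomes, the S-adenosylmethionine carrier Slc25a26, the folate and FAD carrier Slc25a32, the pyrimidine nucleotide carrier Slc25a33, and Slc25a16 and Slc25a42, which supply coenzyme A. Their adjusted p-values ran from 0.167 for Slc25a17 to 0.933 for Slc25a26. Slc25a17 had 72.5, 113, 116 and 141 reads with IL-2, against 121, 150.2, 171 and 169.7 in controls, and the groups overlapped. For Slc25a51 the 95% interval of the difference ran from -0.09 to 0.18 on the deposited scale. As log2 of reads plus 5, a scale that understates fold changes less, its difference was 0.0956 ± 0.153 SE. The last group, of uncoupling-protein-like and orphan carriers with the outer membrane protein Slc25a46, gave 0 calls among 6 tested, with differences from -0.06 for Slc25a27 to 0.04 for Slc25a46. Slc25a30, Slc25a35, Slc25a45 and Slc25a53 lay between them.

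**Figure D2:**
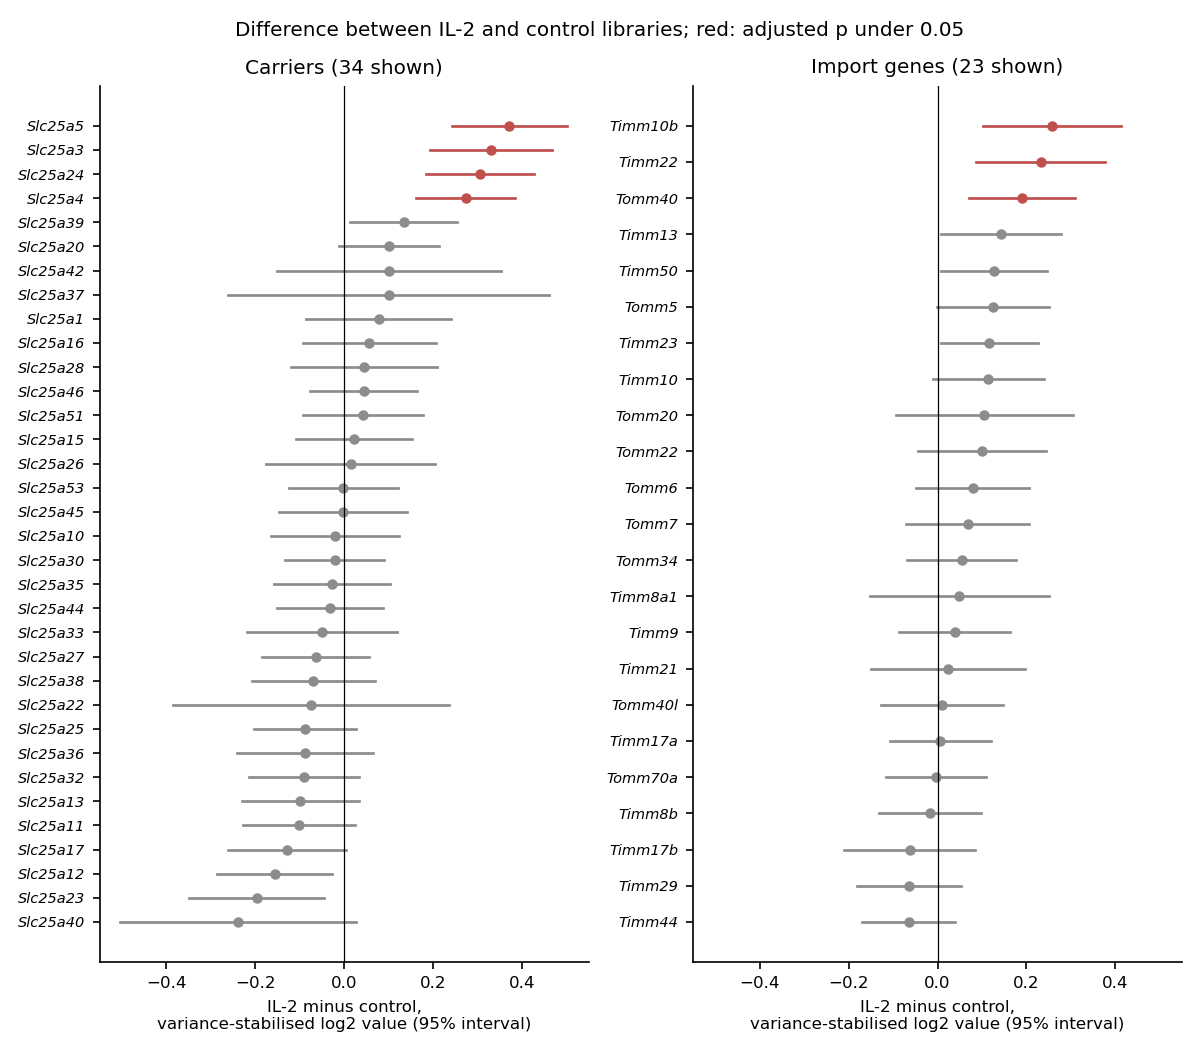
Difference between IL-2 and control libraries on the deposited variance-stabilised log2 scale (points) with the 95% interval before adjustment (lines) for 34 of the 35 tested carriers and the 23 tested import genes, each ordered by size. Red marks the 4 carriers and 3 import genes past an adjusted p of 0.05, all to the right of 0, with Slc25a5 highest at 0.37.

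A further 11 carriers had too few reads for the test. Slc25a21, Slc25a31, Slc25a41 and Slc25a54 were at 0 in all 8 libraries, which allows up to 2.73 to 3.48 normalised reads per library (3 reads, counting error only). Slc25a14, Slc25a18, Slc25a29, Slc25a34, Slc25a43, Slc25a47 and Slc25a48 averaged 0 to 10.3 reads with IL-2 and 0 to 10.5 in controls. Among import genes Tomm20l was at 0 in all libraries, and Timm8a2 averaged 9.21 reads with IL-2 and 4.53 in controls.

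Among import genes, Tomm40, the pore of the TOM complex, Timm22, the core of the TIM22 complex, and Timm10b, a small TIM that joins the TIM22 complex in human cells, were 1.61-fold to 2.09-fold higher with IL-2. Of 23 import genes tested, these 3 rose (13.0%, beside 11.0% of all genes), 0 fell (beside 9.19%) and 20 did not pass. At an unadjusted p of 0.05, 6 were higher and 0 lower. The median difference was 0.07, beside -0.0038 over all genes, and 18 of 23 differences were above 0, beside 48.6% of all genes. Each of the 3 calls was lost when some single library was left out. Without IL-2 library 43 or control library 48 only Timm22 still passed. Without control library 46 none of the 3 passed, and Tomm5 passed in their place (adjusted p = 0.0478). A filter of 1 above the lowest deposited value kept all 3 out of the test. The 25 import genes summed to 4911 to 5015 reads with IL-2 and 4223 to 4579 in controls. That sum includes the 3 that rose and was not tested.

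Timm22 had 96.9, 186, 114 and 97.8 reads with IL-2, against 40.7, 54.7, 70.4 and 70.7 in controls. IL-2 library 42 was far above the other 3, which still lay above every control. Means were 124 ± 42.5 with IL-2 and 59.1 ± 14.4 for controls, the IL-2 mean being 2.09-fold higher (log2 difference 0.23 ± 0.07 SE, limma adjusted p = 0.0269). Without IL-2 library 42 it did not pass (adjusted p = 0.0631), nor without control library 45 or 46 (adjusted p = 0.0769 and 0.0620).

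Timm10b had 157, 133, 204 and 159 reads with IL-2, against 109, 57.2, 119 and 49.2 in controls. The controls fell into a higher and a lower pair, and the lowest IL-2 library lay above the higher pair. Means were 163 ± 29.4 with IL-2 and 83.6 ± 35.5 for controls, the IL-2 mean being 1.95-fold higher (log2 difference 0.26 ± 0.07 SE, limma adjusted p = 0.0225). It did not pass without IL-2 library 43, control library 46 or control library 48 (adjusted p = 0.0648, 0.0673 and 0.0679). Timm10b overlaps a snoRNA gene with no row in the table, and also Dnhd1, in the RefSeq annotation. Dnhd1's own reads, 56.3 with IL-2 and 26.9 in controls, ran the same way without passing (adjusted p = 0.157), and it was not stated whether reads were assigned by strand.

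The other proteins of the carrier route did not pass. Timm9 and Timm10 form a chaperone ring in the intermembrane space, and Timm10 had means of 48.2 ± 10.7 reads with IL-2 and 29.0 ± 13.1 for controls (adjusted p = 0.193, limma). Timm13, which forms a second ring with Timm8 proteins, had 149 ± 26.2 reads (IL-2) and 103 ± 30.3 reads (control) (adjusted p = 0.135). Timm29, a TIM22 subunit described in human cells, had 185 ± 28.6 reads (IL-2) and 211 ± 17.5 reads (control) (adjusted p = 0.453). Timm9, Timm8a1 and Timm8b had adjusted p-values of 0.702, 0.768 and 0.872. Tomm70a, the receptor that recognises carrier precursors on the outer membrane, had 736, 829, 750.4 and 813 reads with IL-2, against 781, 873, 743 and 746 in controls. Its means were 782 ± 45.9 (IL-2) and 786 ± 60.8 (control). The 95% interval of the difference ran from -0.12 to 0.11 on the deposited scale (limma adjusted p = 0.977). As log2 of reads plus 5, a scale that understates fold changes less, the difference was -0.0055 ± 0.0905 SE. The 9 genes of the TIM22 complex and the small TIMs summed to 792 to 877 reads with IL-2 and 591 to 687 in controls, without overlap. This sum includes Timm22 and Timm10b, and the other 7 genes summed to 538 to 584 reads with IL-2 and 456 to 575 in controls, with overlap.

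In the TOM complex 1 of 8 tested genes rose. Tomm40 had 196, 144, 201 and 159.7 reads with IL-2, against 118, 86.8, 122 and 109.5 in controls. The groups did not overlap, with means of 175 ± 27.9 reads with IL-2 and 109 ± 15.9 for controls, the IL-2 mean being 1.61-fold higher (log2 difference 0.19 ± 0.06 SE, limma adjusted p = 0.0286). It did not pass without IL-2 library 41 or 43 or without control library 46 or 48 (adjusted p from 0.0601 to 0.0813). Its paralog Tomm40l had means of 119 ± 20.7 reads with IL-2 and 117 ± 32.6 for controls (adjusted p = 0.938). Tomm40 made up 59.6% ± 4.45 of the reads of both genes in IL-2 libraries and 49.0% ± 10.4 in control libraries (two-sided exact permutation p = 0.143, adjusted 0.429, n = 4 each).

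The receptors and small subunits of TOM did not pass. Tomm20, the receptor for presequences, was even in IL-2 libraries at 663 to 726 reads and spread from 420 to 810 in controls (adjusted p = 0.479, limma). Tomm22, the central receptor, had 259 ± 46.7 reads (IL-2) and 213 ± 42.1 reads (control) (adjusted p = 0.327). Tomm5, a small subunit, had 118, 123, 141 and 125 reads with IL-2, against 87.8, 133, 70.2 and 72.7 in controls, where control library 46 lay among the IL-2 values (adjusted p = 0.162). Tomm6 and Tomm7 had adjusted p-values of 0.392 and 0.515. Tomm34, a cytosolic co-chaperone and not a TOM subunit, had 547 ± 43.6 reads (IL-2) and 507 ± 59.0 reads (control) (adjusted p = 0.565).

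In the TIM23 complex 0 of 6 genes passed. Timm50, the receptor that takes presequence proteins from TOM, had 92.6, 122, 80.9 and 106 reads with IL-2, against 78.9, 47.0, 71.2 and 70.9 in controls. Its groups did not overlap, but IL-2 library 43 and control library 45 were close, and it did not pass (limma adjusted p = 0.127). Timm23, the channel subunit, had 205 ± 20.2 reads (IL-2) and 158 ± 13.8 reads (control) (adjusted p = 0.127). Timm44, which anchors the import motor, had 269 ± 16.5 reads (IL-2) and 303 ± 22.2 reads (control) (adjusted p = 0.395). The channel partner Timm17a had 142 ± 23.3 reads (IL-2) and 139 ± 10.9 reads (control), and its paralog Timm17b had 86.3 ± 28.1 reads (IL-2) and 104 ± 30.9 reads (control), with adjusted p-values of 0.955 and 0.572. Timm21, which links the complex to the outer membrane and the respiratory chain, averaged 17.2 ± 12.8 reads (IL-2) and 11.1 ± 5.98 reads (control) (adjusted p = 0.876). The IL-2 libraries lay wholly above the controls for 4 carriers and 4 import genes and wholly below for 0, beside 13.0% above and 10.9% below over all genes tested.

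**Figure D3:**
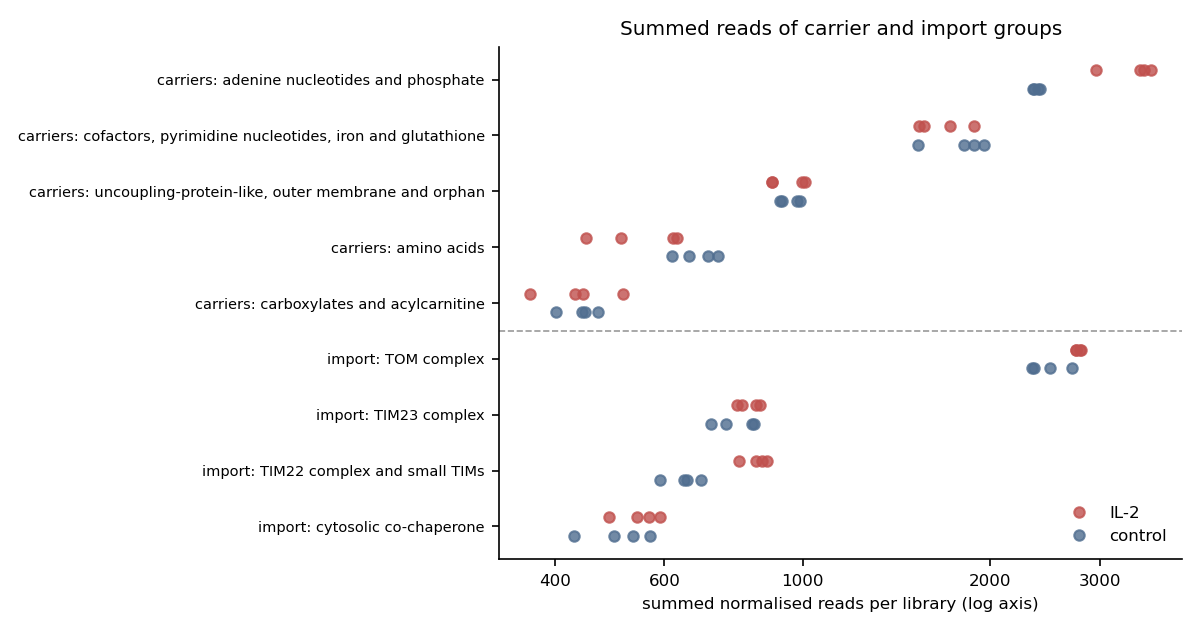
Summed normalised reads per library (log axis) of the 5 carrier groups above the dashed line and the 4 import groups below it, with 4 IL-2 points over 4 control points in each row. The adenine nucleotide and phosphate carriers lie at 2956 to 3624 reads with IL-2 and 2342 to 2407 in controls. This row includes the 4 carriers that rose. The TOM row, which includes Tomm40, lies at 2742 to 2796 reads with IL-2 and 2332 to 2707 in controls. The TIM22 row is also without overlap, while the cofactor, orphan and carboxylate rows overlap.

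**Figure D4:**
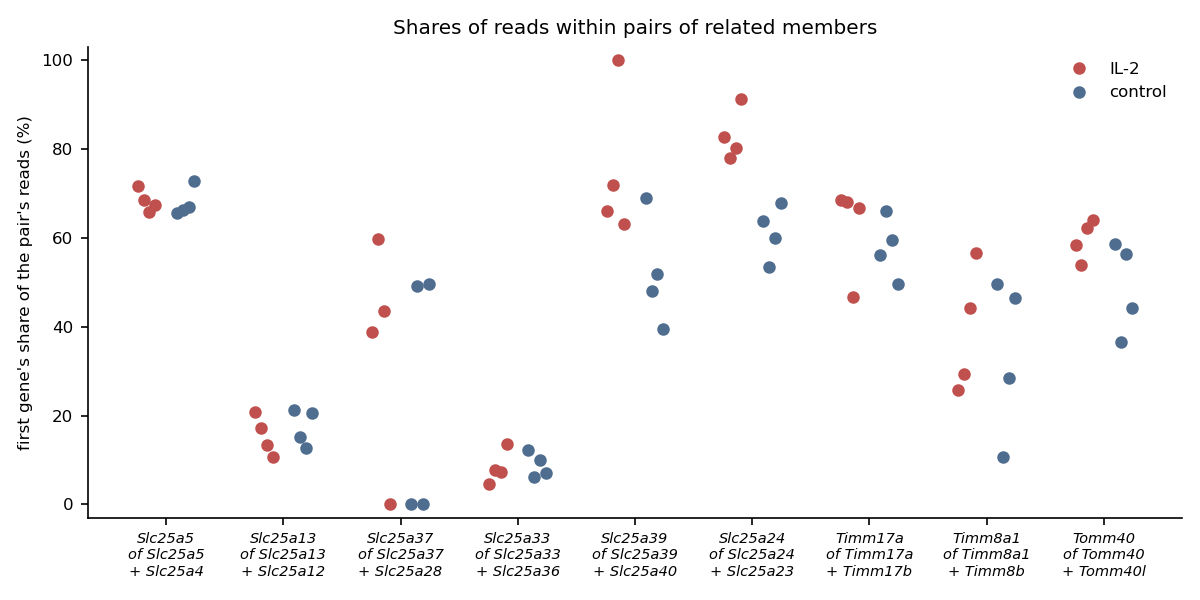
Share of the first gene in the reads of each of the 9 pairs of related members, in percent, with 4 IL-2 points left of 4 control points. Slc25a24 takes 78.0% to 91.2% with IL-2 and 53.4% to 67.9% in controls without overlap, and Slc25a5 takes similar shares in both groups.

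Other genes of mitochondrial import and transport were counted over lists. Of 25 genes of the import motor, processing peptidases, sorting machinery and chaperones, 6 rose (24.0%) and 0 fell, with a median difference of 0.07. Over all genes 11.0% rose and 9.19% fell. This list had a median of 162 reads per gene. Among genes with a mean of at least 100 reads 13.2% rose and 10.9% fell, and from 300 reads 16.3% rose and 14.5% fell. Pam16, a motor regulator, had 53.6 ± 18.0 reads with IL-2 and 8.82 ± 11.6 in controls (adjusted p = 0.00770, limma). Samm50, the core of outer membrane sorting, had 447 ± 41.0 reads (IL-2) and 297 ± 43.2 reads (control) (adjusted p = 0.00778). The matrix chaperone gene Hspa9, whose product drives the motor, had 1349 ± 152 reads (IL-2) and 1042 ± 67.9 reads (control) (adjusted p = 0.0163), and the cytosolic chaperone gene Hsp90ab1 had 14682 ± 2718 reads (IL-2) and 10356 ± 947 reads (control) (adjusted p = 0.00964). Of 22 tested genes for other mitochondrial transporters, 3 rose (13.6%, near the share of all genes) and 1 fell. The porin gene Vdac1 (394 ± 37.2 reads with IL-2, 238 ± 40.4 reads in controls), the serine transporter gene Sfxn1 (354 ± 40.2 reads with IL-2, 246 ± 31.8 reads in controls) and Mtch1, an outer membrane relative of the carriers (95.6 ± 32.0 reads with IL-2, 30.5 ± 33.4 reads in controls), rose. Mtch1 overlapped between the groups, and it did not pass on the scale of log2 reads plus 5 or plus 1 (adjusted p = 0.0529 and 0.0811), with no filter, with robust fitting, or without IL-2 library 42, 43 or 44 or control library 45 or 47. Sfxn1 did not pass without IL-2 library 41 or without control library 48 (limma adjusted p = 0.0614 and 0.0621). Mcu, the pore of the calcium uniporter, fell to 172 ± 21.5 reads with IL-2, against 256 ± 30.4 in controls (adjusted p = 0.0243). Mcu did not pass without IL-2 library 41 or 44 or without control library 46, 47 or 48.

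Of 13 messenger RNAs of mitochondrial DNA, 4 rose (mt-Nd1, mt-Nd5, mt-Co1 and mt-Atp6), or 30.8%, and 0 fell, beside 16.3% that rose among genes with a mean of at least 300 reads. The complex I subunit gene mt-Nd5 had 11826 ± 533 reads with IL-2 and 8863 ± 640 in controls. With quantile normalization 1 of the 13 rose. Together the 13 made up 1.73% ± 0.0650 of recovered reads with IL-2 and 1.53% ± 0.0654 in controls. Within the list, mt-Co2 was uneven, at 0 to 2204 reads with IL-2 and 623 to 2414 in controls. So was mt-Co3, at 631 to 4256 reads with IL-2 and 430 to 3637 in controls. The levels of these genes are uncertain to that extent. Of 20 cell cycle genes, 18 rose (90.0%), among them Uhrf1, Mcm3, Mcm7 and Pcna, and 0 fell, and their sum was 16954 to 27994 reads with IL-2 and 8754 to 11047 in controls. Without IL-2 library 44, the library highest in Mki67, all 7 members still passed, with limma adjusted p from 0.00240 to 0.0403. The remaining IL-2 libraries also lay above the controls in Mki67, at 5332 to 6142 reads against 2810 to 4271. With the Ddx3y covariate all 7 also passed, with adjusted p from 0.00235 to 0.0461. The part of cell division in the members' differences was not tested.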

How the data were processed

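Total RNA of sorted spleen Tregs was turned into 8 stranded libraries using a kit for very small inputs (per the labels' protocols). The deposited table holds 1 variance-stabilised log2 value per gene and library, made by the authors. The submitters' processing notes list Salmon, DESeq2 and GRCm39, and state no roles, settings, annotation or filters here. Salmon estimates how reads are divided among similar sequences.

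To recover normalised reads, the parametric form of the authors' variance-stabilising transformation was inverted, its scale being set by the lowest deposited value, 8.69. The 5 commonest low values of each library gave each library's size factor, and all 40 were whole numbers of reads to within 0.001. Because the deposited values are not counts, no count model was used. Depth was 4953546 to 6399417 reads per library.

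Genes with at least 10 normalised reads in at least 4 libraries were fitted on the deposited values with limma (eBayes with trend, no covariates, IL-2 minus control). Benjamini-Hochberg adjustment ran over all 10777 genes, and the threshold was 0.05. Shares within 9 pairs of related members were tested by exact permutation (two-sided) over the 70 divisions of the libraries. The fitting step was tested on simulated data. Promoters came from RefSeq on GRCm38.p6, matched by symbol for 36 carriers and 22 import genes; no coordinates of the authors' build are given.

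Members and lists were chosen with earlier results of these data known. Every library's value is given for the members that rose with a mean of at least 100 reads, up to 6 per kind and direction, and for pairs with an exact p under 0.05. Some genes are not reported here by name; counts and sums include them. Of each context list up to 4 genes per direction are named by smallest adjusted p. Timm22, which averages fewer reads, and members named without a call were chosen after their values were seen. The NRF1 motif was shortened to its 8-base core after the data were seen.

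Alternatives were no filter, a filter of 1 above the lowest value, log2 reads plus 5 or plus 1, quantile normalization, median centring, limma without trend, robust or with array weights, leaving out each library, and, chosen after seeing the data, a Ddx3y covariate. Tools were limma 3.58.1 in R 4.3.3, and pandas 2.3.3, numpy 2.4.6 and matplotlib 3.10.9 in Python 3.11.15.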

Additional observations from a re-analysis of the deposited data

Results flagged for a closer look

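The values here were picked out because 1 library lay far from the other 3 of its group. Of 132 groups of 4 screened, 8 were picked out, where chance gives about 1 in 20. None of the 7 members that rose was among them. In controls, Slc25a11 had 202 reads in library 48 and 275 to 289 in the others, and Slc25a30 had 231 in library 48 and 287 to 289 in the others. Slc25a44 had 192 reads in control library 45 and 147 to 154 in the others. Tomm6 had 261 reads in control library 47 and 173 to 177 in the others. With IL-2, library 43 had 148 reads of Slc25a38 against 73.7 to 84.3 in the others, and 294 of Timm44 against 258 to 263. Slc25a32 had 125 reads in IL-2 library 41 and 180.2 to 184 in the others. The share of Timm17a in the reads of Timm17a and Timm17b was 46.6% in IL-2 library 43 and 66.7% to 68.5% in the other IL-2 libraries.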

How the results depend on the processing

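The 4 carriers that rose kept their direction and stayed past the threshold under every alternative run, with limma adjusted p-values from 5.12e-04 to 0.00992. The 3 import genes kept their direction under every alternative that tested them. The count of import genes that rose was 0 with the filter of 1 above the lowest value, which leaves these 3 genes out, and 1 to 3 when a library was left out. The 1 gene without control library 46 was Tomm5, so none of the 3 passed there. The count of carriers that fell was 0 to 1 when a library was left out, and 1 with the Ddx3y covariate; in both cases this was Slc25a23. Shares within 3 pairs changed sign when a library was left out, and the cause was not tested. The difference in the share of Slc25a5 ran from -0.709 to 2.01 percentage points, of Slc25a33 from -2.33 to 0.690, and of Timm8a1 from -2.55 to 10.4. No paired analysis was possible because the groups share no replicate number. Timm50, at 100.2 ± 17.5 reads with IL-2 and 67.0 ± 13.8 in controls, had groups that did not overlap and did not pass at this depth.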
